A study of Mus musculus with 2 samples.

Results

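Divergent gene pair promoters are stretches of DNA from which a pair of protein-coding genes is read in opposite directions, away from each other. They were described here in T-helper 2 (Th2) cells, the CD4+ T cells known for secreting IL-4, IL-5 and IL-13. The assay was ATAC-seq, in which a transposase cuts and tags accessible chromatin. Region names also carry the words ASTARR and insert, which the labels leave unexplained. If the sequenced fragments were inserts of a cloned library, the regions and fold enrichments would describe those inserts, and "open" below means only that a region was listed. The data were lists of regions from 2 libraries of primary Th2 cells of the mouse strain C57BL/6NJ, with no genotype, treatment or second cell type given. Sex was not collected and age was unknown. The 2 libraries were labelled as biological replicates with separate biosamples under 1 donor record. Separate animals were not stated, so differences between the libraries may reflect technical variation alone. Regions of both lists that overlapped by at least 1 bp were joined into 67027 regions, and 44058 of these held regions of both replicates (shared regions). A shared region under 2000 bp wide was a divergent pair promoter when it overlapped the interval between the 5′ ends of 2 protein-coding genes on opposite strands that pointed apart. The 5′ ends had to lie 1 to 1000 bp apart in the GENCODE M21 annotation of mm10. These conditions gave 647 divergent pair promoters among the 44058 shared regions, at 664 of 754 annotated pairs.

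Many protein-coding genes of mammals lie head to head. Such promoters are typically CpG islands without a TATA box, where RNA polymerase II starts on both strands from separate core promoters that share a nucleosome-depleted stretch. Genes of DNA repair and of mitochondria are known to be frequent among them, and sites for ETS and SP/KLF factors, NRF1, YY1 and NFY are typical of their sequences.

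The DNA between the 5′ ends is printed for 10 pairs: 8 of the members with the highest fold enrichment and 2 pairs known from the literature. Fold enrichment is the authors' value for a region, read here as the ratio of signal at its summit to local background. All sequences are from the plus strand of mm10, 5′ to 3′. The first base is the 5′ end of the minus-strand gene, which is named first, and the last base is the 5′ end of the plus-strand gene. Capitals mark exact matches, on either strand, to the letters searched for ETS, SP/KLF, NRF1, NFY, YY1, CRE, ZBTB33, ZNF143 and TATA-box motifs, and matches may overlap. Pigf–Cript lies at chr17:87025406-87025550, 6030458C11Rik–Drosha at chr15:12824649-12824815 and Tbccd1–Dnajb11 at chr16:22857669-22857845. Zcchc17–Snrnp40 lies at chr4:130359943-130360132, Npc2–Isca2 at chr12:84773152-84773251 and Casc1–Etfrf1 at chr6:145211005-145211134. 2700097O09Rik–Srp54a lies at chr12:55080110-55080262 and Dad1–Abhd4 at chr14:54254104-54254188. Mrps12–Sars2 lies at chr7:28741820-28741992 and Brca1–Nbr1 at chr11:101551955-101552149.
Pigf–Cript: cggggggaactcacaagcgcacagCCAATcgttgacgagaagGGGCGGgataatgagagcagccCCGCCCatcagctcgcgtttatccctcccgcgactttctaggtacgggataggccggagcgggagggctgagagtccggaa
6030458C11Rik–Drosha: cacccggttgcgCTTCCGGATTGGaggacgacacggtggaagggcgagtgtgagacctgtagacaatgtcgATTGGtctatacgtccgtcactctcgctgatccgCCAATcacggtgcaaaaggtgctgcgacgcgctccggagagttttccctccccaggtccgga
Tbccd1–Dnajb11: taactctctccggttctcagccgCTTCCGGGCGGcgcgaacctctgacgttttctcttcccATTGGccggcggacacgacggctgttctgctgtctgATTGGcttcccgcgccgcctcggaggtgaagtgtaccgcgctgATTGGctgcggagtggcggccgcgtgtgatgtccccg
Zcchc17–Snrnp40: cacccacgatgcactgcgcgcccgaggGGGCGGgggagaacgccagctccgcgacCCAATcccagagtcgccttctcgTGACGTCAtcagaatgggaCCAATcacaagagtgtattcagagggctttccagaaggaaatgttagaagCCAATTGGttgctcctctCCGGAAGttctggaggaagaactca
Npc2–Isca2: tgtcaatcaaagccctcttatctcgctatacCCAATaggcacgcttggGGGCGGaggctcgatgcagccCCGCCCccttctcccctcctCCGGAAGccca
Casc1–Etfrf1: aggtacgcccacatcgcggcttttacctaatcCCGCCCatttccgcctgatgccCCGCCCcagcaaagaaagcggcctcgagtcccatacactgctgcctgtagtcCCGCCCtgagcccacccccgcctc
2700097O09Rik–Srp54a: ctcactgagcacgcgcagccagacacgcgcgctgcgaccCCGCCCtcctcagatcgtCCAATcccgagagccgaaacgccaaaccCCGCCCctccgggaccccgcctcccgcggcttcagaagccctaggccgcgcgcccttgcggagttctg
Dad1–Abhd4: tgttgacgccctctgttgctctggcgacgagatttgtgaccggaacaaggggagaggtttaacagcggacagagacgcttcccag
Mrps12–Sars2: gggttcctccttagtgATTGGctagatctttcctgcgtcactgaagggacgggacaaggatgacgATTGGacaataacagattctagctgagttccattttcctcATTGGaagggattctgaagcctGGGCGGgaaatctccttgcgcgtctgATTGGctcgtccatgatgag
Brca1–Nbr1: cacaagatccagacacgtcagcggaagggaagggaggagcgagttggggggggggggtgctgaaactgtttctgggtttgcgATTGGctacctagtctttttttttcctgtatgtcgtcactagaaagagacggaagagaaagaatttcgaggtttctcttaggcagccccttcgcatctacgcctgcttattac

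The letters CCAAT, which the factor NFY is known to bind, stood in 8 of these 10 sequences. Mrps12–Sars2 and Zcchc17–Snrnp40 held 4 such matches each, and those of Mrps12–Sars2 were all on the minus strand. SP/KLF letters (GGGCGG) stood in 7 of the 10 and ETS letters (CCGGAAG) in 4. In 300 bp at the middle of all 647 members, the shares were 38.0% for NFY, 69.2% for SP/KLF and 23.2% for ETS. In 300 bp at the 5′ ends of all protein-coding genes they were 36.6, 45.5 and 11.5%. Because 8 of the 10 printed sequences were chosen for high fold enrichment, their counts do not stand for all members. Dad1–Abhd4 held none of the letters searched. Counted from 1 at the first printed base, the strongest summit of Zcchc17–Snrnp40 lay at position 115 in replicate 1 and 117 in replicate 2, between the CRE match that starts at 79 and the ETS match that starts at 166. That of 6030458C11Rik–Drosha lay at position 82 in both replicates. Elsewhere the summit could lie outside the printed bases in both replicates. It lay before the first base in Npc2–Isca2 (−36 in both) and Dad1–Abhd4 (−100 in both). It lay after the last base in 2700097O09Rik–Srp54a (325 and 329) and Brca1–Nbr1 (803 and 729).

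Most annotated divergent pairs were open. Of the 754 pairs, 664 (88.1%, 95% Wilson interval 85.6 to 90.2%) overlapped a shared region under 2000 bp, and 46 more did so only with a wider one. Counted by gene, 1284 of the 1487 genes of pairs (86.3%) had their 5′ end inside a shared region under 2000 bp, against 8195 of 19174 single genes (42.7%). A single gene was one with no other protein-coding 5′ end within 1000 bp. Among single genes with the 5′ end of an opposite-strand long non-coding RNA (lncRNA) gene within 1000 bp upstream, 458 of 671 (68.3%) were open. The Wilson intervals cover counting error only. No test was made over regions or genes, because they are not replicates of a condition and the study has 1 group.

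CpG content moved with these shares. With a ratio of observed to expected CpG of at least 0.6 in the 300 bp around the 5′ end (CpG-rich), 1188 of 1305 pair genes (91.0%) and 6685 of 8617 single genes (77.6%) were open. Below that ratio, 96 of 182 pair genes (52.7%) and 1510 of 10557 single genes (14.3%) were open. The share was thus higher for pair genes in both classes, by a wider margin in the CpG-poor one. The part that CpG content has in the difference between all pair genes and all single genes was not tested beyond this split.

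Pairs with close 5′ ends were open most often. The open share was 96.1% at 1 to 50 bp, 91.3% at 51 to 100 bp, 85.4% at 101 to 200 bp, 86.2% at 201 to 400 bp and 79.1% at 401 to 1000 bp. With wider regions included these shares were 99.2, 94.6, 92.7, 93.8 and 90.1%, so wide regions accounted for more of the pairs with distant 5′ ends. Fold enrichment did not follow this order. Its medians were 10.3 and 11.7 at 1 to 50 bp, 12.3 and 13.8 at 201 to 400 bp, and 10.8 and 11.6 at 401 to 1000 bp. The median ratio of observed to expected CpG at the middle of members was 0.886 in the first bin and 0.681 in the last. The part of CpG content in these shares was not tested. The members with the shortest distance were Bag4–Lsm1 and Slc7a6os–Prmt7, whose 5′ ends were neighbouring bases (1 bp apart), and Dhrs1–Nop9 at 3 bp. Bag4 is a co-chaperone of the BAG family and Lsm1 a subunit of a complex of mRNA decay. Bag4–Lsm1 had a fold enrichment of 11.3 in replicate 1 and 15.3 in replicate 2. Dhrs1–Nop9 had 6.78 and 7.58, under the median of the divergent pair promoters in both replicates. The longest distances among members were 987 bp at Btf3l4–Txndc12, 981 bp at Asphd1–Sez6l2 and 978 bp at Zfyve26–Rad51b. Just outside the distance limit, Serpina7–4930513O06Rik at 1007 bp had no shared region, Gpr108–Trip10 at 1009 bp had fold enrichments of 8.77 and 9.27, and Sgsm2–Tsr1 at 1011 bp had 6.66 and 7.38.

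**Figure D1:**
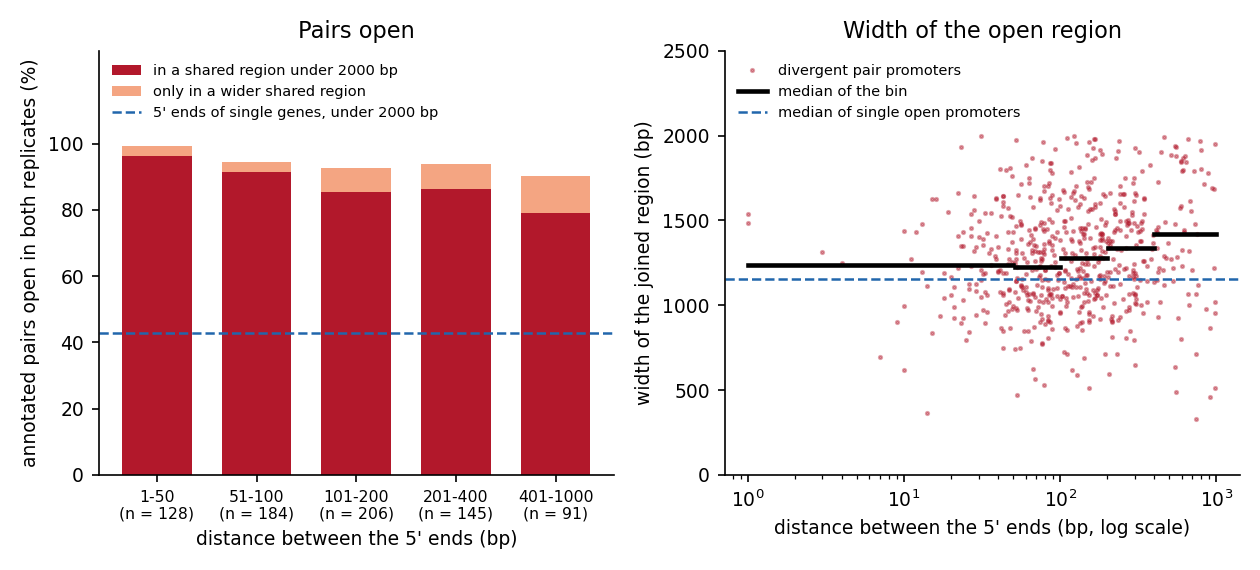
Left, share of annotated divergent pairs (%) in a shared region, by distance between the 5′ ends (bp), with the share of single genes' 5′ ends as a dashed line. Right, width of each divergent pair promoter (bp) against that distance (log scale), with bin medians in black and the median of single open promoters dashed. The open share runs between 96.1% at the shortest distances and 79.1% at the longest, and the median width between 1226 and 1421 bp.

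The 44 pairs with no region in both replicates included genes known for use in other tissues. Among them were Col4a4–Col4a3, collagens of basement membranes, Kirrel2–Nphs1, adhesion proteins of which Nphs1 is nephrin of kidney podocytes, and Smc1b–Ribc2, of which Smc1b is a cohesin subunit of meiosis. Sgce–Peg10, an imprinted pair, and Il11–Tmem190 also had no region in either list. Duox2–Duoxa2, an oxidase of the thyroid and its maturation factor, had a region in replicate 2 only, with a fold enrichment of 2.79. The median ratio of observed to expected CpG was 0.307 at these 44 pairs and 0.861 at the 664 open ones. In 15 of the 44, another annotated transcript start of 1 or both genes lay in a shared region, so a pair could be closed at its outermost 5′ end while the gene was open elsewhere. Rps2, a protein of the small ribosomal subunit, had such a region with fold enrichments of 7.12 and 9.59, whose summit lay 1.83 kb from its outermost 5′ end, the one next to Rnf151. For Xrcc1, a scaffold protein of DNA single-strand break repair, the values were 13.5 and 16.6 at 0.745 kb, and for Ccnt1, the cyclin of the elongation factor P-TEFb, 11.9 and 18.1 at 3.05 kb. These genes were chosen after their values were seen.

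Replication-dependent histone genes, many of which are known to be arranged as divergent H2A and H2B pairs, were split between open and closed pairs. Of 67 annotated genes 27 (40.3%) were in divergent pairs, against 6.78% of all protein-coding genes. Of these 27, 8 (29.6%) were in open pairs under 2000 bp, against 1310 of the 1487 genes of all pairs (88.1%), and 21 were when wider regions were included. Hist1h2ak–Hist1h2bn had fold enrichments of 10.4 and 13.2, and Hist1h2bf–Hist1h2ad had 5.02 and 6.17. The widest region at any pair, 3859 bp, lay at Hist1h2ag–Hist1h2bj, with 8.24 and 9.89. Hist1h2ap–Hist1h2br, Hist1h2bq–Hist1h2ao and the testis histone pair Hist1h2ba–Hist1h2aa had no region in either list. Histone genes have near-identical copies, and how reads that match several copies were treated is not given in the sources used here, so these values are uncertain.

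Divergent pair promoters had higher fold enrichment than single open promoters in both replicates. Their medians were 11.3 in replicate 1 and 12.8 in replicate 2 (25th to 75th percentile 9.23 to 13.2 and 10.4 to 14.8, n = 647), against 9.73 and 11.0 in single open promoters (6.93 to 12.1 and 7.81 to 13.6, n = 8175). A single open promoter was a shared region under 2000 bp that held the 5′ end of a single gene and of no other protein-coding gene. The ratio of medians was 1.17 in each replicate, and 68.6 and 70.0% of the divergent pair promoters stood above the single median. The groups overlapped widely: divergent pair promoters spanned 2.60 to 18.4 and 2.63 to 20.2, and single open promoters reached 22.4 and 25.4. Within its whole list, the median divergent pair promoter stood above 89.2 and 90.8% of regions, and the median single open promoter above 81.7 and 84.3%.

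Promoters with a non-coding partner lay close to those with a coding one. The 457 single open promoters with an opposite lncRNA 5′ end upstream had medians of 11.0 and 12.5. A further group lies just outside the distance rule: 457 head-to-head pairs whose outermost 5′ ends coincide or pass each other by up to 1000 bp, of which 394 (86.2%) were open. Their 379 regions that were not already members had medians of 10.9 and 12.4. Divergent pair promoters had the highest medians of these 4 groups in both replicates, by margins smaller than their spread from the 25th to the 75th percentile.

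**Figure D2:**
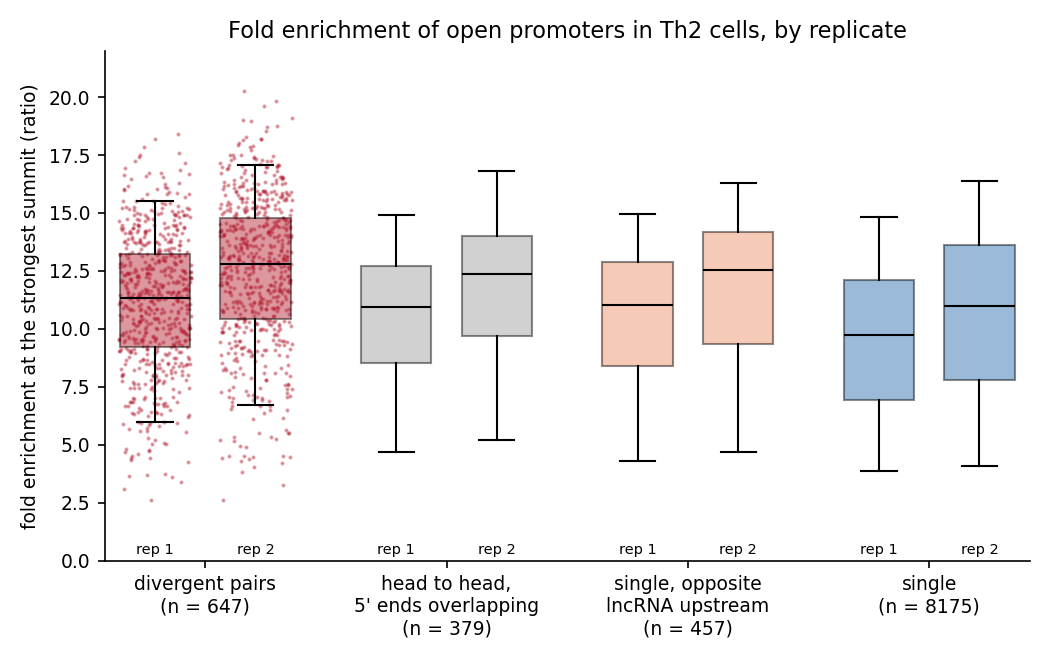
Fold enrichment (ratio) of open promoters in each replicate, for divergent pairs, head-to-head pairs with overlapping 5′ ends, single genes with an upstream opposite lncRNA gene and all single genes. Boxes give the 25th percentile, median and 75th percentile, whiskers the 5th and 95th percentiles, and points the 647 divergent pair promoters. The medians of the first 3 groups lie within 10.9 to 11.3 in replicate 1, and that of single genes at 9.73.

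The difference was smaller among CpG-rich promoters and larger among CpG-poor ones. The CpG-rich class, now taken from the 300 bp at the middle of each region, held 580 divergent pair promoters (89.6%) and 6770 single open promoters (82.8%). Its medians were 11.5 and 12.9 in divergent pair promoters and 10.1 and 11.5 in single ones, a ratio of 1.13 in both replicates. In the CpG-poor class the medians were 9.86 and 11.0 in 67 divergent pair promoters and 7.22 and 8.37 in 1405 single ones, ratios of 1.37 and 1.31. Replicate 2 had the higher value in both groups by the same median factor, 1.12. Spearman's rho between replicates was 0.907 over the 647 divergent pair promoters and 0.935 over the 8175 single ones. These describe regions of the same 2 libraries.

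The members with the highest fold enrichment were of varied function. Pigf–Cript, of which Pigf acts in the synthesis of GPI anchors, had 17.8 in replicate 1 and 19.8 in replicate 2. 6030458C11Rik–Drosha, of which Drosha is the nuclease that cuts primary microRNAs, had 18.2 in both. Tbccd1–Dnajb11, of which Dnajb11 is a co-chaperone of the endoplasmic reticulum, had 18.4 and 17.7. The replicates did not order these members alike. Zcchc17–Snrnp40, with a component of the U5 snRNP of the spliceosome, had 17.2 and 18.8. Npc2–Isca2 joins a lysosomal cholesterol carrier and a factor of mitochondrial iron–sulfur cluster assembly, and had 17.5 and 18.2. Ranbp10–Tsnaxip1 (17.6 and 18.6), Casc1–Etfrf1 (17.4 and 18.1) and Zfp277–Dock4 (17.2 and 18.3) were in the same range. 2700097O09Rik–Srp54a, with a subunit of the signal recognition particle, had 16.5 and 19.0. Dad1–Abhd4, with a subunit of the oligosaccharyltransferase, had 15.6 and 19.6, the largest gap between replicates of these 10.

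The lowest members included genes of basic cell functions. Sirt1–Dnajc12 had 2.60 and 2.63 in a region of 328 bp that covered the 5′ end of Sirt1, a NAD-dependent deacetylase, but not that of Dnajc12. A second member at the same pair, 710 bp wide, covered the 5′ end of Dnajc12 and had 6.81 and 8.11. Nudt22–Trpt1, with a phosphotransferase of tRNA splicing, had 3.39 and 3.26 in 364 bp. Cenpj–Parp4, with a protein of centriole growth, had 3.63 and 4.06, and Spaca9–Ak8, with an adenylate kinase, had 3.66 and 4.22. Sec24a–Sar1b, which encode a coat subunit and the small GTPase of the same COPII vesicle coat, had 3.70 and 4.46. All 5 stood below the 5th percentile of the divergent pair promoters, 5.96 and 6.73.

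Of 23 divergent pairs known from the literature, 6 met the distance rule and 5 of these were open. Atm–Npat had fold enrichments of 15.3 and 15.8 over an interval of 307 bp. Atm is the kinase that signals DNA double-strand breaks, and Npat is a coactivator of histone genes. Mcm4–Prkdc, the genes of a subunit of the replicative helicase and of the catalytic subunit of DNA-PK, had 14.5 and 15.9 over 466 bp. Mrps12–Sars2, which encode a protein of the mitochondrial ribosome and the mitochondrial seryl-tRNA synthetase, had 13.2 and 14.4. Idh3g–Ssr4, with a subunit of isocitrate dehydrogenase and one of the translocon-associated complex, had 12.0 and 13.9. Brca1–Nbr1, a gene of homologous recombination and an autophagy receptor, had 11.3 and 11.1, below the group's median in both replicates, and the other 4 stood above it. Col4a4–Col4a3 was closed. In 13 of the 23 the outermost 5′ ends passed each other, and 11 of these pairs had both 5′ ends in the same shared region. Hspd1–Hspe1, the mitochondrial chaperonin and its co-chaperonin, had 12.2 and 13.3 there, and Tap1–Psmb9, genes of antigen processing, had 13.1 and 13.7. In 3 pairs the 5′ ends were farther than 1000 bp apart, as at Cd3d–Cd3g, 1355 bp, where both genes of the T cell receptor complex shared a region with 6.35 and 6.96. Thg1l and Lsm11 lay on the same strand.

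**Figure D3:**
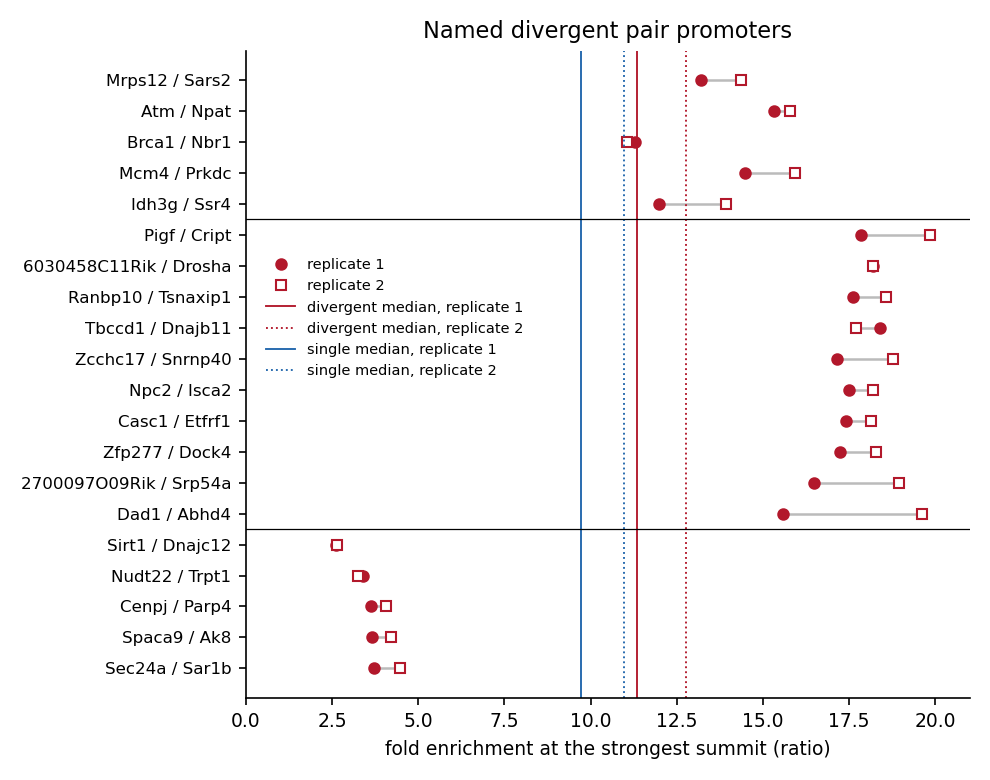
Fold enrichment (ratio) of named divergent pair promoters in replicate 1 (circles) and replicate 2 (squares): literature pairs at the top, the 10 highest in the middle and the 5 lowest at the bottom. Lines mark the medians of divergent pair promoters (red) and single open promoters (blue) in replicate 1 (solid) and replicate 2 (dotted). The highest members lie between 15.6 and 19.8, and the lowest between 2.60 and 4.46.

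By function, genes of genome maintenance were frequent in divergent pairs and T cell genes absent. Of all 21938 protein-coding genes, 1487 (6.78%) were in divergent pairs. Of the genes in pairs, 1310 of 1487 (88.1%) were in open pairs, and the open counts below are to be read against that share. Of 129 listed genes of DNA replication and repair 35 (27.1%) were in divergent pairs, 34 of them (97.1%) open, with median fold enrichments of 13.0 and 13.6. Among them Rpa3–Umad1 had 15.1 and 16.4 and Rpa1–Smyd4 had 15.2 and 16.3; Rpa1 and Rpa3 encode subunits of replication protein A, which binds single-stranded DNA. Mcm4–Prkdc was the 1 open pair with both genes on that list. Of 99 listed T cell genes none was in a divergent pair and 2 were in head-to-head pairs with overlapping 5′ ends. Of the 99, 67 (67.7%) had an open 5′ end. Over all protein-coding genes that share was 47.6% with regions under 2000 bp and 50.9% with regions of any width. None of 1093 olfactory receptor genes and none of 69 Gpr genes was in a divergent pair.

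Genes of mitochondria and of basic machinery were also often in divergent pairs. Of 78 mitochondrial ribosomal protein genes 18 (23.1%) were in divergent pairs, 16 of them (88.9%) open. Of 37 genes listed by name under respiratory complex I 9 (24.3%) were, all open. Over all genes 6.78% were in pairs, and 88.1% of pair genes were open. The complex I list can hold genes of other respiratory complexes, because it rests on gene names. Mrpl32–Psma2, which pairs a mitochondrial ribosomal protein with a proteasome subunit, had 14.9 and 20.2, the highest value of all members in replicate 2. Ndufa4–Phf14, with a subunit of the respiratory chain that is on the complex I list by its name, had 15.2 and 15.5. Of 26 genes of RNA polymerase subunits 9 (34.6%) were in divergent pairs, all open. Their medians were 9.77 and 10.9, below those of all divergent pair promoters, and by the mean of both replicates they ran from Polr3a–Rps24, with 4.44 and 6.51, to Dzank1–Polr3f, with 11.7 and 17.2. Of 39 proteasome genes 6 (15.4%) were in divergent pairs, all open, and of 36 annotated aminoacyl-tRNA synthetase genes 5 (13.9%), all open. Cytosolic ribosomal protein genes had lower values still: 8 of 82 (9.76%) were in divergent pairs, and the 7 open ones had medians of 8.02 and 9.30. Among genes grouped by name alone, 20 of 365 Zfp genes (5.48%), 20 of 136 Ccdc genes (14.7%), 23 of 241 Tmem genes (9.54%) and 16 of 361 solute carrier genes (4.43%) were in divergent pairs, of which 15, 19, 20 and 13 were open, shares that lie around the 88.1% of all pair genes.

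Divergent pair promoters were wider than single ones. Their median joined width was 1274 bp (25th to 75th percentile 1066.5 to 1491.5), against 1152 bp in single open promoters (935 to 1399), a difference of 122 bp. Head-to-head pairs with overlapping 5′ ends had a median of 1292 bp and single open promoters with an upstream opposite lncRNA 1236 bp, both also above the single median. In the replicates' own lists the medians were 1194 and 1200 bp in divergent pair promoters and 1049 and 1084 bp in single ones. A width of 1000 bp or more was found in 83.2% of divergent pair promoters and 68.4% of single ones. The difference was 90 bp among CpG-rich promoters, with 1262 against 1172 bp, and 365 bp among CpG-poor ones, with 1399 against 1034 bp. The widest members were Hnrnpd–4930524J08Rik at 1998 bp, Dpm1–Mocs3 at 1995 bp and Lnx2–Polr1d at 1990 bp. The narrowest were Sirt1–Dnajc12 and Nudt22–Trpt1, described above, and Nisch–Sema3g at 461 bp. At or just over the limit, Urod–Hectd3 was 2000 bp wide, Lamtor2–Ubqln4 2006 bp and Spata1–Gng5 2027 bp. Regions of 2000 bp or more made up 45 of 692 at divergent pairs (6.50%) and 555 of 8740 at single genes (6.35%), so the width limit left out similar shares.

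Divergent pair promoters reached less far into each gene than single ones did. They reached a median of 518 bp past the 5′ end into the minus-strand gene and 538 bp into the plus-strand gene, with 120 bp between the 5′ ends. Single open promoters reached 690 bp into the gene and 420 bp upstream of it. The distance rule bears on this comparison, because it keeps only pairs whose outermost 5′ ends do not pass each other. Head-to-head pairs whose 5′ ends do pass each other had a median distance of −328 bp and a median width of 1292 bp. Their reach into each gene was not measured, so the direction may not hold for them. Width changed less than the distance between the 5′ ends did: the bin medians of width ran between 1226 bp at 51 to 100 bp and 1421 bp at 401 to 1000 bp. Over the 647 regions Spearman's rho was 0.140 between distance and width, and −0.292 between distance and the summed reach into both genes. These correlations share the same regions and the limit on width.

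Width and fold enrichment were related differently in the 2 groups. Spearman's rho between them was −0.097 over the 647 divergent pair promoters and 0.197 over the 8175 single ones. Within the 4 quartiles of fold enrichment of single open promoters, from lowest to highest, divergent pair promoters had median widths of 1064.5, 1311, 1412 and 1188.5 bp. Single open promoters had 953.5, 1208.5, 1247 and 1159.5 bp in the same quartiles. The difference was thus 29 bp in the highest quartile, which held 39.3% of divergent pair promoters, and between 102.5 and 165 bp in the others. The lowest quartile held 8.66% of them.

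Most summits lay within 100 bp of the midpoint between the genes' 5′ ends, and most lay within 100 bp of a 5′ end. The strongest summit fell between the 5′ ends in 308 of 647 divergent pair promoters (47.6%) in replicate 1 and 323 (49.9%) in replicate 2. It lay inside the minus-strand gene in 176 and 172, and inside the plus-strand gene in 163 and 152, so neither strand took most of the rest. Both replicates gave the same place in 521 (80.5%), and opposite genes in 27. Where the summit lay outside the interval, it was a median of 51 bp inside the gene in both replicates. The median signed distance to the midpoint between the 5′ ends was 1.5 bp in replicate 1 and −1.5 bp in replicate 2. Its sign depends only on which gene is on the minus strand, so this median cannot show how close summits lay. Regardless of sign, 67.1 and 69.6% of summits lay within 100 bp of the midpoint. Within 100 bp of the nearest 5′ end lay 77.0 and 76.8%. The 5′ ends were a median of 120 bp apart, so these windows often overlap. The shares thus cannot tell a place at the midpoint from a place at a 5′ end.

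The distance from midpoint to summit hardly depended on the distance between the 5′ ends up to 400 bp. Its median was 58.5 bp at 1 to 50 bp, 60.75 bp at 51 to 100 bp, 61 bp at 101 to 200 bp and 62.75 bp at 201 to 400 bp in replicate 1, and between 51 and 64.75 bp in these bins in replicate 2. At 401 to 1000 bp it was 253 and 276 bp. The share of summits between the 5′ ends, 11.9, 33.7, 57.0 and 81.4% in the first 4 bins of replicate 1, was larger where the interval was longer, and it was 60.3% in the last. In that last bin 67.1% of regions covered both 5′ ends, against 97.1 to 100% in the others.

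Relative to each gene, summits of divergent pair promoters lay farther upstream than those of single genes. They were upstream of the plus-strand gene's 5′ end in 74.2 and 75.9% and of the minus-strand gene's in 72.2 and 73.1%, against 46.7 and 47.6% in single open promoters. The median place was 68 and 67 bp upstream of the plus-strand gene, 74 and 66 bp upstream of the minus-strand gene, and −9 and −6 bp, or just inside the gene, in single open promoters. Single genes with an upstream opposite lncRNA lay between, with 63.7% upstream in each replicate and medians of 34 and 38 bp. Geometry and annotation bear on this comparison. In a divergent pair every summit lies upstream of the plus-strand gene, the minus-strand gene or both. The shares of divergent pair promoters thus have a floor that single genes lack. The distance rule also keeps only pairs whose outermost 5′ ends do not pass each other and sets no such condition on single genes. In the head-to-head pairs whose 5′ ends do pass each other, 31.4 and 30.3% of summits were upstream of the plus-strand gene. Where all annotated transcripts of a gene start within 100 bp, the shares were 76.2 and 81.0% for plus-strand and 78.6 and 83.3% for minus-strand genes (n = 42), and 51.9 and 52.4% for single genes (n = 1699). The floor for divergent pairs holds in this subset too.

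**Figure D4:**
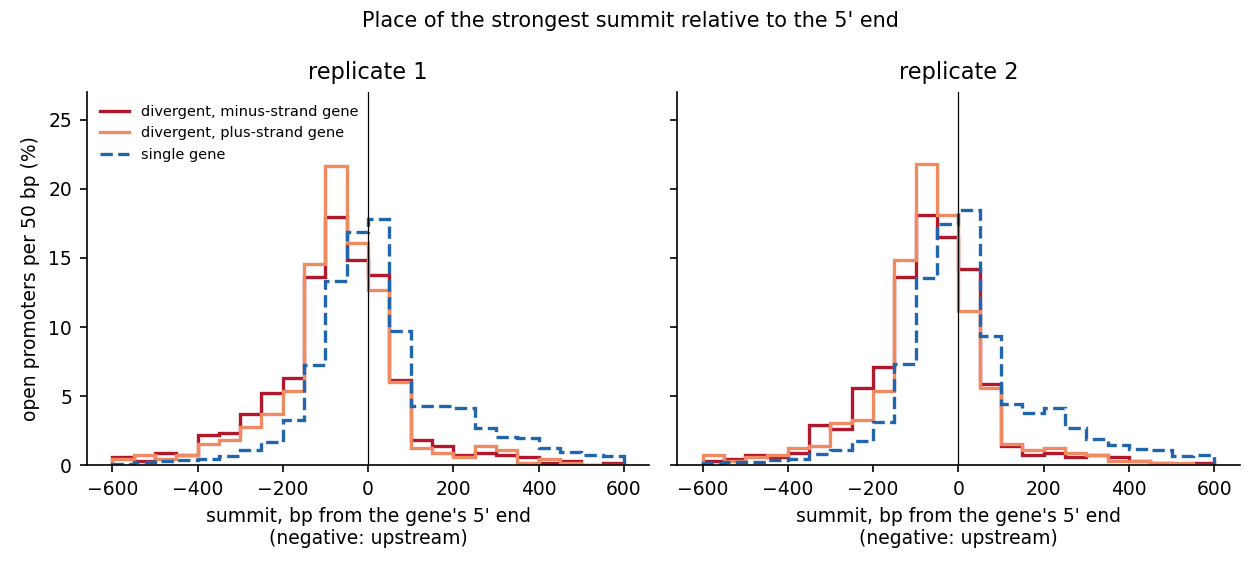
Place of the strongest summit relative to the gene's 5′ end (bp, negative values upstream), as the share of open promoters per 50 bp (%), for the minus-strand and plus-strand genes of divergent pairs and for single genes, in each replicate. Summits beyond 600 bp are not drawn. The divergent curves peak upstream of the 5′ end, with medians of 66 to 74 bp upstream, and the single curve peaks at it.

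The summits of the 2 replicates lay closer together in divergent pair promoters than in single ones. Their distance had a median of 15 bp in them and 30 bp in single open promoters, with 15 bp also in head-to-head pairs with overlapping 5′ ends and 27 bp in single ones with an upstream opposite lncRNA, and summits were within 100 bp of each other in 86.9% of divergent pair promoters against 80.3% of single ones. Exceptions were Pecam1–Milr1, where the summits of the plus-strand region lay 1124 bp apart, Sart3–Iscu at 781 bp and Tradd–Fbxl8 at 692 bp. Pecam1 is an adhesion molecule of endothelium and leukocytes and Milr1 an inhibitory receptor of mast cells. Their pair had 2 members, 1 at each 5′ end, with fold enrichments of 3.75 and 4.52 at Pecam1 and 5.83 and 5.49 at Milr1. Zfyve26–Rad51b likewise had 2 members, with 9.06 and 12.5 at Zfyve26 and 6.86 and 6.52 at Rad51b. The summits farthest from the midpoint were those of Sox6–1110004F10Rik, at 1253.5 and 1273.5 bp, and Obsl1–Inha, at −1161.5 and −1155.5 bp. Negative distances point to the minus-strand gene. Peg3–Usp29, an imprinted pair, followed with −998.5 bp in both replicates and fold enrichments of 6.87 and 4.29.

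Nearly all divergent pair promoters covered both genes' starts. Both 5′ ends lay in the region in 618 of 647 (95.5%), the minus-strand gene's alone in 16 and the plus-strand gene's alone in 12. Asphd1–Sez6l2 was the 1 region that held neither. It was 512 bp wide, lay within an interval of 981 bp and had fold enrichments of 8.34 and 7.15. In 20 regions more than 1 annotated pair was present, because genes at 1 locus can overlap, and only 3 pairs had 2 members.

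In base composition the 2 groups were close, and in percentage points ETS and NFY letters differed most of the 12 motifs searched. Median GC content was 64.0% in divergent pair promoters and 67.0% in single ones, and the median ratio of observed to expected CpG 0.852 and 0.832. In the 300 bp at the middle of each region, the ETS letters CCGGAAG stood in 23.2% of divergent pair promoters (95% Wilson interval 20.1 to 26.6%) and 14.2% of single ones (13.5 to 15.0%). The NFY letters CCAAT stood in 38.0% (34.4 to 41.8%) and 25.8% (24.9 to 26.8%). Over the 300 bp at the 5′ ends of all protein-coding genes the shares were 11.5% for ETS and 36.6% for NFY. These windows are placed unlike those at the middle of a region. Single open promoters reached a median of 690 bp into the gene and 420 bp upstream, so their middle tends to lie inside the gene. Comparisons of motif shares between these groups thus mix the place of the window with the kind of promoter, for all motifs given here. Both strands were searched for every motif, and a match describes letters, not a bound site.

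Among CpG-rich promoters ETS letters stood in 24.8% of divergent pair promoters and 15.5% of single ones, and NFY letters in 37.4 and 24.4%. In windows centred on the summit of replicate 1, ETS shares were 29.1 and 18.5% and NFY shares 46.4 and 36.2%. The SP/KLF letters GGGCGG were in 69.2% of divergent pair promoters and 65.9% of single ones, against 45.5% of all genes. Among CpG-rich promoters the SP/KLF shares were 71.6 and 72.0%, so that difference was not seen there. YY1 letters, ATGGCGG, were in 13.4 and 10.9%. CRE letters, TGACGTC, were in 6.34 and 3.71%, and those of ZBTB33, CTCGCGA, in 6.18 and 3.90%. ZNF143 letters, ACTACAA, were in 4.02 and 2.23%, and NRF1 letters, GCATGCG, in 5.56 and 4.55%. The TATA letters TATAAA were in 3.09% of divergent pair promoters and 3.08% of single ones, against 10.6% of all genes, and at the summit of replicate 1 they were in 2.63 and 3.49%. AP-1, RUNX and GATA letters were less frequent in divergent pair promoters than at the 5′ ends of all genes. AP-1 letters, TGACTCA, were in 2.16% of divergent pair promoters, 2.58% of single ones and 4.06% of all genes. For RUNX, TGTGGTT, the shares were 2.01, 2.91 and 4.52%, and for GATA factors, with the letters AGATAA, they were 4.17, 3.06 and 8.19%. At the summit of replicate 1 the order of the first 2 turned for GATA, with 2.63% in divergent pair promoters and 3.36% in single ones.

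**Figure D5:**
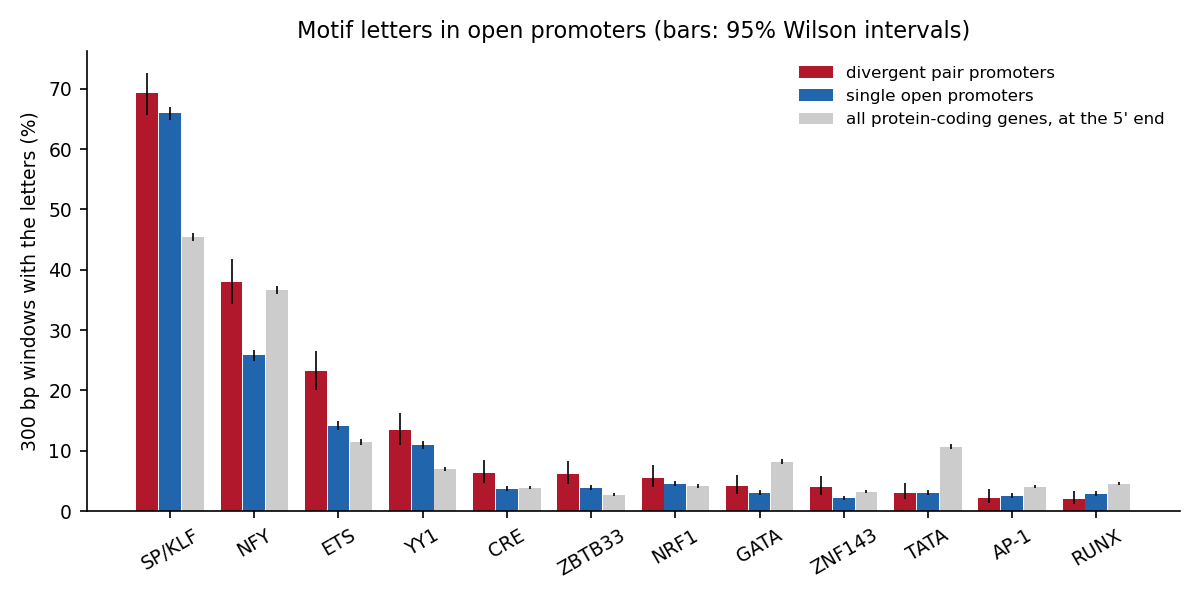
Share of 300 bp windows (%) that hold the letters of each motif on either strand. Windows lie at the middle of the region in divergent pair and single open promoters, and at the 5′ ends of all protein-coding genes. Error lines are 95% Wilson intervals. The ETS share is 23.2% in divergent pair promoters and 14.2% in single ones, and the TATA share 3.09 and 3.08%.

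Members with NFY letters had higher fold enrichment than members without. The medians were 12.3 and 13.9 in the 246 divergent pair promoters with the letters and 10.5 and 12.0 in the 401 without. For SP/KLF letters they were 11.6 and 13.1 with and 10.8 and 12.0 without. For ETS letters the medians were 11.4 and 12.9 in 150 with and 11.3 and 12.8 in 497 without. Medians were also higher with CRE letters (41 members, 11.8 and 13.6) and ZNF143 letters (26 members, 11.5 and 13.9), against 11.3 and 12.8 without for each. With NRF1 (36 members) they were 11.2 and 12.5, with ZBTB33 (40) 10.4 and 12.7, and with YY1 (87) 11.3 and 12.8. Members without these letters had 11.4 and 12.8 for each. None of these differences was tested. For GATA and TATA letters, present in 27 and 20 members, the medians were lower with the letters: 9.68 and 10.4 against 11.4 and 12.8 for GATA, and 9.38 and 11.8 against 11.4 and 12.8 for TATA.

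As a check of the label, 10 of 10 marker genes of T cells and Th2 cells had a shared region within 1 kb of their 5′ end, among them Gata3, the lineage factor of Th2 cells, with 10.2 and 10.9, and Il4 with 7.42 and 6.94. None of 9 marker genes of CD8 T and NK cells, B cells and myeloid cells did. Among the 10, Cd4 had the lowest values, 2.75 and 3.88. Of all protein-coding genes, 50.9% had a shared region of any width at the 5′ end itself, a stricter condition than within 1 kb. The lists held 51557 regions in replicate 1 and 60891 in replicate 2. Sequencing depth was unknown, and reads and signal tracks were not analysed here.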

How the data were processed

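ATAC-seq was measured in 2 libraries of 1 group. The authors called regions for each library separately, from its own mm10 alignment, per the file headers. Words in the region names point to masking, duplicate removal and sorting; the words ASTARR, insert and a number of hours also occur and are unexplained in the labels. Which aligner and peak caller were used, and how transposase cut sites were treated, is not given in the sources used here. The deposited fold enrichment is read here as a ratio to background, and the deposited −log10 q-value is the authors' own. The lowest −log10 q was 1.00 and 1.01. Depth per library is unknown, so no counting interval of a fold can be given.

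Lists were joined on 21 main chromosomes with Python 3.11.15, NumPy 2.4.6 and pandas 2.3.3; a joined region took the fold enrichment and summit of its strongest region in each replicate. Genes came from the GENCODE M21 comprehensive annotation, with the outermost 5′ end of a gene record, and bases from the RefSeq GRCm38.p6 assembly. Wilson intervals came from SciPy 1.17.1. Joining and pairing were tested on simulated regions. Named pairs were the 10 highest and 5 lowest members, the 3 most extreme in width, distance, summit spread and summit place, the 3 just outside each limit, and literature pairs; other named pairs were chosen after their values were seen. Members and lists were chosen with earlier results of these data known. Alternatives were a stricter q-value, other overlap, distance, width and promoter rules, each replicate alone, and gene subsets.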

Additional observations from a re-analysis of the deposited data

How the results depend on the processing

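The fold, width and ETS differences between divergent pair and single open promoters kept their direction under the alternatives tried for each. Other motif shares did turn: GATA and TATA at the summit, and SP/KLF and AP-1 among CpG-rich promoters. There AP-1 letters stood in 2.07% of divergent pair promoters and 1.79% of single ones. The share of pairs open in both replicates, 88.1%, was 94.2% with no width limit, 84.6% with both 5′ ends in the region, 79.4% when only CpG-rich regions counted as open, with all 754 pairs still in the denominator, and 78.6% of the 56 pairs whose transcripts all start within 100 bp, a subset added after seeing the data. With 1 replicate alone it was 89.3 to 89.4%. The ratio of fold enrichment medians, 1.17, was 1.11 with −log10 q of at least 10, 1.15 with a reciprocal overlap of 50%, 1.13 in CpG-rich regions, 1.17 with no width limit and 1.17 with single regions that overlap the 250 bp before the 5′ end. It was 1.18 for 5′ ends up to 500 bp apart, 1.18 against single genes with no upstream 5′ end, 1.18 with both 5′ ends in the region, 1.19 in the subset with close transcript starts, and 1.16 to 1.17 with 1 replicate. The width difference of 122 bp was 89 bp with −log10 q of at least 10, 90 bp in CpG-rich regions and 120 to 139 bp with 1 replicate. The mean share of summits between the 5′ ends, 48.8%, was 48.0 to 50.5% with 1 replicate and 60.7% in the subset with close transcript starts. The ETS share, 23.2%, was 29.1% at the summit. The cause of these shifts was not tested. No paired analysis was possible because there is 1 group.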

Other observations

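The number of divergent pair promoters per chromosome ran from 60 on chromosome 11, beside 696 single open promoters, to 7 on chromosome 18, beside 201. Chromosome X had 12 and 246, and no divergent pair promoter lay on chromosome Y.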
